A study of Caenorhabditis elegans with 4 samples.

Results

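Chromosome IV of Caenorhabditis elegans carried 1921 of the 10483 NURF-1 peaks (10482 of them on nuclear chromosomes) in the combined peak list of wild-type L3 larvae, and all of them are described here. The peaks were taken from the list by chromosome and placed by their midpoints in piRNA domain 1 (4.5 to 7.0 Mb, 215 peaks), piRNA domain 2 (13.5 to 17.2 Mb, 328 peaks) or the rest of IV (1378 peaks). The rest consists of a left part before domain 1 (666 peaks), a middle part between the domains (690 peaks) and a right tip after domain 2 (22 peaks). Positions are on genome build WS220. The rule for membership uses chromosome and position and no peak score, width or count. The 2 domains span 6.2 Mb, or 35.4% of the chromosome, and held 28.3% of its peaks.

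NURF-1 is the worm relative of mammalian BPTF, the scaffold subunit of the remodelling complex NURF, in which the ATPase ISW-1 slides nucleosomes along DNA. piRNAs, known in worms as 21U-RNAs, are short germline RNAs that bind the Piwi protein PRG-1 and guide the silencing of foreign and repeated sequences. Most worm piRNA genes are tiny separate transcription units with their own upstream promoter motif, and they lie in large clusters on chromosome IV among ordinary protein-coding genes. Of 15363 piRNA genes in the RefSeq table (assembly WBcel235), 14714 (95.8%) were assigned to chromosome IV, against 16.4% of protein-coding genes. That table is on another build, so its positions were not set against the peaks, and whether a given peak lies at a piRNA gene or a protein-coding gene was not examined.

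The libraries came from strain N2, wild type, as a mixed population of males and hermaphrodites at the L3 larval stage at 20 °C. An affinity-purified rabbit polyclonal antibody, SDQ3528, was used for 2 NURF-1 chromatin immunoprecipitation (ChIP) replicates, and 2 further libraries were input DNA. Every group shares this genotype, stage and temperature, so the comparisons are between regions of the genome. Separate cultures are not stated for the replicates, so the difference between them may be technical. Whole larvae were used, so germline and somatic binding cannot be told apart. Replicate 1 held 1660 peaks on IV and replicate 2 held 1371. The lists give no reads, so depth is unknown, and no input value was analysed.

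Both piRNA domains held fewer NURF-1 peaks per megabase than the rest of the chromosome. In the combined list the density was 86.0 peaks per Mb in domain 1 (95% exact Poisson interval 74.9 to 98.3) and 88.6 in domain 2 (79.3 to 98.8), against 122 in the rest of IV (116 to 129). Domain 1 thus had 0.705 of the density of the rest (exact interval of the ratio 0.608 to 0.814) and domain 2 had 0.727 (0.642 to 0.820). The lower density was seen in each replicate. Replicate 1 gave 77.2 peaks per Mb in domain 1, 80.0 in domain 2 and 103.7 in the rest, with ratios of 0.745 (0.636 to 0.868) and 0.772 (0.677 to 0.877). Replicate 2 gave 60, 69.2 and 85.4, with ratios of 0.702 (0.587 to 0.835) and 0.810 (0.703 to 0.930). For each domain the ratios of the 2 replicates lay closer to each other than to 1. These intervals cover counting error over peaks only; neighbouring peaks are not independent and the peaks of a list come from the same libraries, so no p-value is given.

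**Figure D1:**
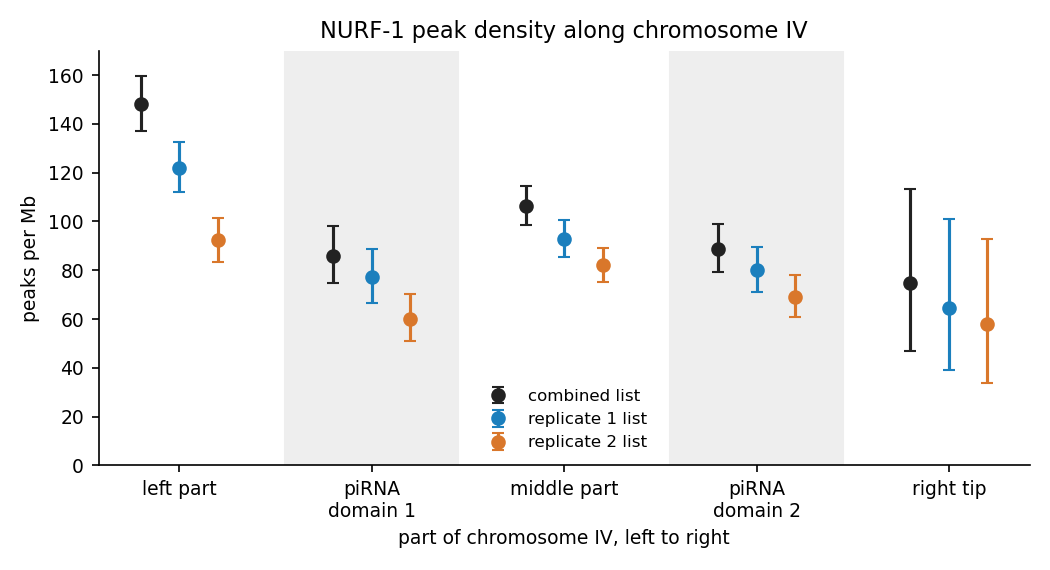
NURF-1 peaks per Mb (vertical axis) in 5 parts of chromosome IV in chromosomal order, for the combined list and each replicate; points are densities, bars are 95% exact Poisson intervals and grey marks the piRNA domains. Within each list the left part is densest (148 peaks per Mb in the combined list), and both domains lie below the left and middle parts. The right tip, with 22 combined peaks, is lowest in each list (74.9 in the combined list) and has a wide interval that spans both domains.

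The contrast was widest against the left part of IV. The left part held 148 combined peaks per Mb (137 to 160) and the middle part 106.2 (98.4 to 114). The right tip, with 22 peaks, held 74.9 (46.9 to 113), below either domain. It was also the sparsest part in replicate 1, at 64.7 (38.9 to 101), and in replicate 2, at 57.9 (33.7 to 92.6). In each list its interval includes the densities of both domains. Set against the left part, the ratio was 0.581 (0.496 to 0.679) for domain 1 and 0.599 (0.523 to 0.685) for domain 2. Set against the middle part it was 0.810 (0.692 to 0.946) and 0.835 (0.730 to 0.954). The middle part was thus much nearer to the domains than the left part was. Between the domains themselves no difference in density was resolved, with a ratio of domain 1 to domain 2 of 0.970 (0.813 to 1.16). Peaks also covered less of either domain than of the rest. They covered 4.83% of domain 1, 4.75% of domain 2 and 6.77% of the rest in the combined list, 4.15%, 3.97% and 5.74% in replicate 1, and 2.69%, 3.08% and 3.83% in replicate 2.

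Peaks of the lower and of the upper score range were both sparser in the domains than in the rest of IV. Among combined peaks above the list's median score of 13.94, the ratio to the rest of IV was 0.782 (0.637 to 0.954) in domain 1 and 0.761 (0.638 to 0.903) in domain 2. Among those at or below it, the ratios were 0.632 (0.507 to 0.780) and 0.694 (0.581 to 0.825). In replicate 2 the lower range in domain 2 had a ratio of 0.834 (0.681 to 1.01), the one of the replicate values for these ranges whose interval reaches 1. Against the left part the combined ratios of the lower range were 0.465 (0.369 to 0.582) and 0.511 (0.423 to 0.616). Against the middle part they were 0.817 (0.645 to 1.03) and 0.898 (0.738 to 1.09), and in replicate 1 domain 2 was at 1.04 (0.854 to 1.28). A lower density of these weaker peaks than in the middle part was thus not resolved in the combined list. In the upper range the ratios to the middle part were 0.804 (0.647 to 0.993) and 0.782 (0.648 to 0.941). The strongest peaks, the top 10% of the list by score, were sparse in domain 2, with 22 peaks or 5.95 per Mb against 11.95 per Mb in the rest (ratio 0.497, 0.302 to 0.784). The same ratio for domain 2 was 0.580 (0.354 to 0.912) in replicate 1 and 0.574 (0.332 to 0.944) in replicate 2. Domain 1 held 21 such peaks, with a ratio of 0.703 (0.421 to 1.12) in the combined list and 0.939 (0.557 to 1.51) in replicate 2. Both of these intervals for domain 1 include 1. Against the middle part the domain 1 ratio was 0.613 (0.362 to 0.996) in the combined list and 0.867 (0.502 to 1.44) in replicate 2. For domain 2 the combined ratio to the middle part was 0.434 (0.259 to 0.699). Its combined ratio to the left part was 0.637 (0.362 to 1.09). Replicate 1 gave 0.823 (0.463 to 1.44) and replicate 2 gave 0.66 (0.357 to 1.19) against the left part. A lower density of the strongest peaks in domain 2 than in the left part was thus not resolved. For domain 1 the interval against the left part also included 1 in each list.

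Density was uneven within the domains. Counted in 0.5 Mb bins, domain 1 held 39 to 51 combined peaks per bin over 5 bins and domain 2 held 31 to 51 over 7 bins. The end of domain 2, from 17.0 to 17.2 Mb, shares a bin with the right tip and is left out of these counts. That shared bin held 111 combined peaks per Mb, above the 102 of the fullest domain bin, so the range for domain 2 omits a dense end. The 22 bins of the rest of IV held 36 to 103, with a median of 55.5 against 42.5 for the 12 domain bins. The ranges overlap. Of the bins outside the domains, 7 held no more peaks than the fullest domain bin, 6 of them in the middle part and 1 in the left part. In replicate 1 the domain bins held 27 to 50 peaks and 12 of the 22 other bins held no more than 50. In replicate 2 they held 20 to 43 and 13 of 22 held no more than 43. A domain bin could thus not be told from many middle-part bins by its count alone. The sparsest bin of the middle part, at 10.5 to 11.0 Mb, held 36 combined peaks, 28 in replicate 1 and 27 in replicate 2.

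In domain 1 the fullest bin was the first, at 4.5 to 5.0 Mb, with 51 combined peaks, 50 from replicate 1 and 38 from replicate 2. The bin just outside it, at 4.0 to 4.5 Mb, held 70, 56 and 51. At the other end of domain 1 the counts were 43, 37 and 32 inside (6.5 to 7.0 Mb) and 47, 45 and 41 outside (7.0 to 7.5 Mb), so the step at the right bound was small. At the left bound of domain 2 the counts changed from 70, 65 and 51 (13.0 to 13.5 Mb) to 51, 47 and 38 (13.5 to 14.0 Mb). The bin across its right bound, from 17.0 Mb to the end of IV, held 55, 48 and 44. Its combined density was 111 peaks per Mb, against 74.9 in the right tip alone. The part of this bin inside domain 2 was thus denser than the tip outside it. The sparsest bin of domain 2 in the combined list lay at 16.0 to 16.5 Mb, with 31 combined peaks, 27 in replicate 1 and 28 in replicate 2. Next to it, the bin at 15.5 to 16.0 Mb held 36, 32 and 20. Across the 34 full bins of IV that lay in 1 part, the counts of the 2 replicates had Pearson r = 0.85 and Spearman rho = 0.80, a description of bins that share libraries.

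**Figure D2:**
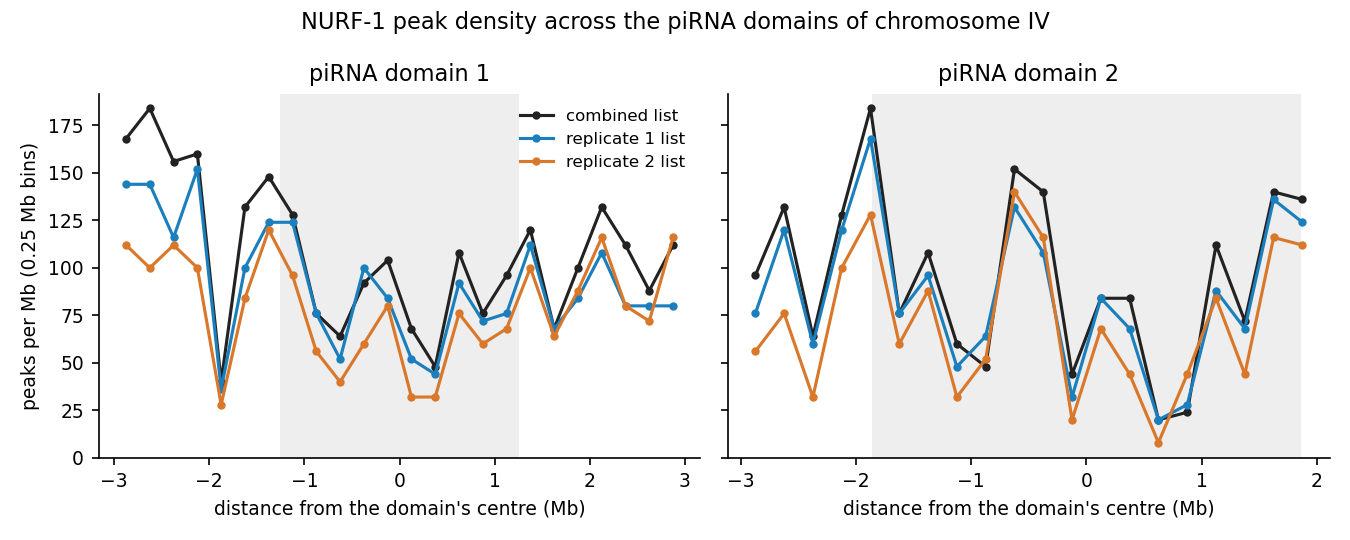
Peaks per Mb in 0.25 Mb bins (vertical axis) by distance from the centre of each piRNA domain in Mb (horizontal axis), for the 3 peak lists; grey marks the domain, and bins at the edges of domain 2 straddle its bounds. Combined densities range from 48 to 128 peaks per Mb inside domain 1 and from 20 to 152 inside domain 2, and a bin as low as 40 also lies to the left of domain 1.

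Long stretches without any peak took up more of the domains. Stretches of at least 20 kb made up 64.7% of the bases of domain 1 and 70.0% of domain 2, against 49.96% of the rest of IV. Replicate 1 gave 68.9%, 74.2% and 55.9%, and replicate 2 gave 75.3%, 76.4% and 62.7%. In each list both domains were above the left and the middle part. The short right tip was higher than either domain for combined peaks, at 72.9%, and for replicate 2 peaks, at 76.8%. For replicate 1 peaks the tip had 73.0%, above domain 1 and below domain 2. The gap was wider for long stretches in domain 2. Stretches of at least 50 kb made up 43.4% of domain 2 (23 stretches), 20.96% of domain 1 (7 stretches) and 13.8% of the rest (23 stretches) in the combined list. The corresponding replicate 1 values were 52.3%, 37.5% and 19.2%, and those of replicate 2 were 55.6%, 46.7% and 24.8%. At this length the excess of domain 1 over the rest was larger in each replicate list than in the combined list, whereas at 20 kb it was smaller.

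**Figure D3:**
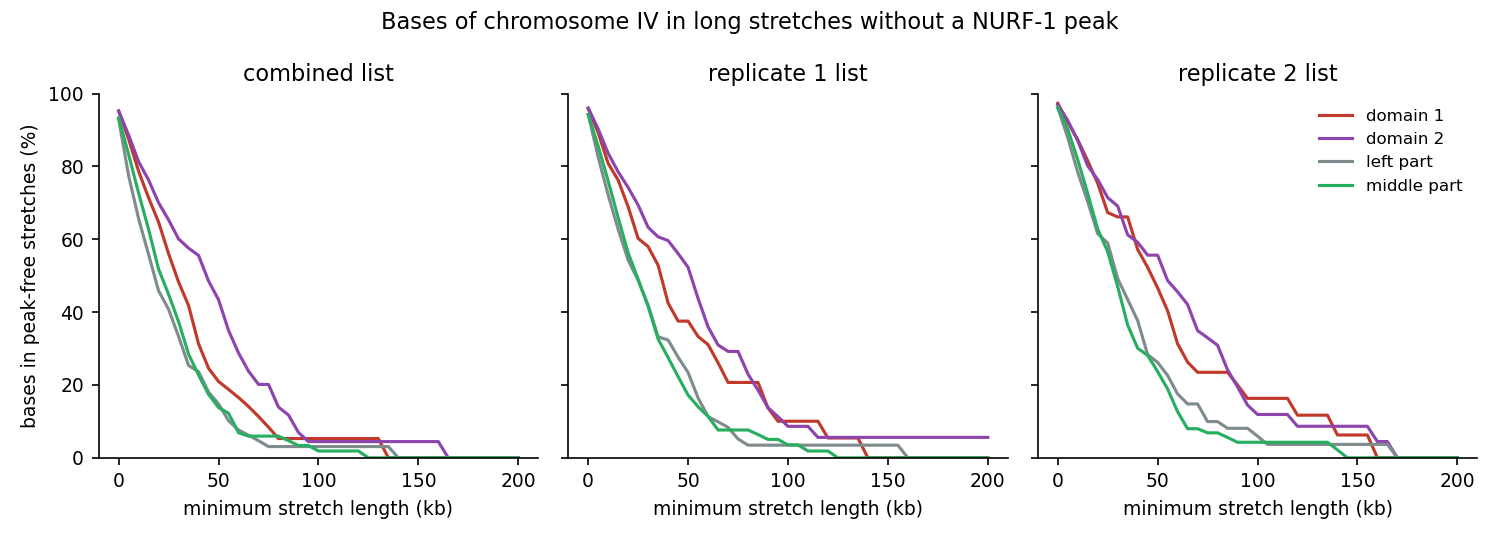
Share of bases lying in peak-free stretches at least as long as the length on the horizontal axis (kb), for the piRNA domains and the left and middle parts of IV, with 1 panel per peak list. At 50 kb the domain 2 curve is highest in all 3 lists (43.4% in the combined list), domain 1 follows, and the left and middle parts are lowest.

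The longest peak-free stretch of the chromosome in the combined list lay in domain 2 at IV:16224153-16389108 (165 kb), and neither replicate had a peak there. The second of domain 2, at IV:16036927-16129343 (92.4 kb), held 3 replicate 2 peaks near its right end with scores of 5.68 to 13.24, and another across its edge with a score of 62.55, but no replicate 1 peak. The third of domain 2, at IV:14128487-14217929 (89.4 kb), was empty in both replicates. In domain 1 the longest was IV:4931013-5063327 (132 kb), touched at its right edge by 1 replicate 1 peak with a score of 16.68. The next in domain 1 were IV:5848623-5926764 (78.1 kb) and IV:6664484-6737837 (73.4 kb), with no peak in either replicate. Stretches of this length were not limited to the domains. The rest of IV had one of 139 kb at IV:3875715-4014949, in the left part, one of 122 kb at IV:10562124-10683936 and one of 97.9 kb at IV:12930886-13028773, all empty in both replicates.

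The domains differed in how the remaining peaks were spaced. In domain 2, 66.8% of combined peaks had a neighbour with its midpoint within 2 kb, against 47.4% in domain 1 and 57.9% in the rest of IV. Domain 1 was thus 19.3 percentage points below domain 2 (95% Newcombe interval of the difference -27.5 to -10.8). It was -15.5 points (-24.2 to -6.51) in replicate 1 and -23.8 (-33.2 to -13.8) in replicate 2. Domain 2 exceeded the rest of IV by 8.86 points (2.99 to 14.4) in the combined list, by 9.78 in replicate 1 and by 11.9 in replicate 2. Against the left part, where 64.9% had such a neighbour, the difference of domain 2 was 1.90 points (-4.44 to 8.03) in the combined list, 2.73 (-4.12 to 9.36) in replicate 1 and 9.51 (1.85 to 16.9) in replicate 2. All 3 differences were positive, and the intervals of the combined list and replicate 1 include 0.

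When peaks no more than 2 kb apart were joined into sites, a step added after the data were seen, domain 2 had 163 sites with 2.01 peaks each on average and domain 1 had 135 with 1.59. The rest of IV had 781 sites with 1.76 peaks each. Site density in domain 2 was 44.1 per Mb, 0.637 of that in the rest (0.535 to 0.755), and in domain 1 it was 54.0 per Mb, 0.781 of the rest (0.646 to 0.939). The replicate ratios were 0.642 and 0.701 for domain 2 and 0.769 and 0.755 for domain 1. Joining neighbours therefore lowered the ratio of domain 2 and raised that of domain 1. The site with most peaks in domain 2, at IV:17092854-17104491, spanned 11.6 kb and held 12 combined peaks with a median score of 12.5, of which 7 were in both replicates. That of domain 1, at IV:6317710-6328487, held 8 peaks over 10.8 kb with a median score of 56.4, of which 6 were in both replicates.

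In the combined list a larger share of peaks scored above the median in either domain than in the left part, and no difference from the middle part was resolved. For domain 2 neither replicate list resolved an excess over the left part. The score, whose scale the authors did not state, is used mainly to rank peaks within a list. Distances between score values, and Pearson's r of paired scores given below, depend on that unknown scale. In the combined list the median score was 16.34 in domain 1 (order-statistic 95% interval 11.94 to 21.69), 14.13 in domain 2 (12.55 to 15.78) and 13.05 in the rest (11.53 to 14.95). Peaks above the list's median score made up 116 of 215 (54.0%) in domain 1 and 167 of 328 (50.9%) in domain 2, against 48.6% in the rest of IV and 50% of all nuclear peaks. The differences from the rest were 5.33 points (-1.84 to 12.4) and 2.29 points (-3.71 to 8.27). Replicate 1 gave 3.32 points (-4.27 to 10.8) and -3.58 points (-9.86 to 2.79), and replicate 2 gave 2.66 points (-5.91 to 11.1) and -1.45 points (-8.29 to 5.40). The sign for domain 2 was not stable between lists, and each of these intervals includes 0. The rest pools a left part with 42.5% and a middle part with 54.3% of combined peaks above the median. Against the left part the differences were 11.5 points (3.79 to 19.0) for domain 1 and 8.42 points (1.84 to 14.9) for domain 2. Against the middle part they were -0.394 points (-8.02 to 7.13) and -3.43 points (-9.96 to 3.10). Against the left part, replicate 1 gave 10.4 (2.23 to 18.4) and 3.51 points (-3.47 to 10.5). Replicate 2 gave 8.03 (-1.27 to 17.2) and 3.92 points (-3.83 to 11.6). Against the middle part, replicate 1 gave -2.54 (-10.6 to 5.45) and -9.44 points (-16.3 to -2.49), the latter excluding 0. Replicate 2 gave -1.26 (-10.3 to 7.62) and -5.38 points (-12.7 to 2.05). With the bounds moved inward by 0.2 Mb, domain 1 differed from the rest by 10.3 points (2.53 to 17.7).

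Between the domains, the upper quartiles of the score lay further apart in score units than the medians did. No interval was computed for the quartiles. The upper quartile of the combined score was 68.8 in domain 1 and 35.0 in domain 2, against 30.1 in the left part and 81.3 in the middle part. The same upper quartiles were 67.8, 30.7, 34.5 and 89.0 for replicate 1, and 50.9, 31.8, 31.2 and 52.1 for replicate 2. Domain 1 lay near the middle part and domain 2 near the left part in each list. The top 10% of the list held 9.77% of domain 1 peaks (21 of 215) and 6.71% of domain 2 peaks (22 of 328), against 9.80% in the rest of IV and 10% of all nuclear peaks. The difference between the domains was 3.06 points (-1.56 to 8.27) in the combined list, 2.59 (-2.48 to 8.29) in replicate 1 and 6.58 (0.517 to 13.5) in replicate 2.

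**Figure D4:**
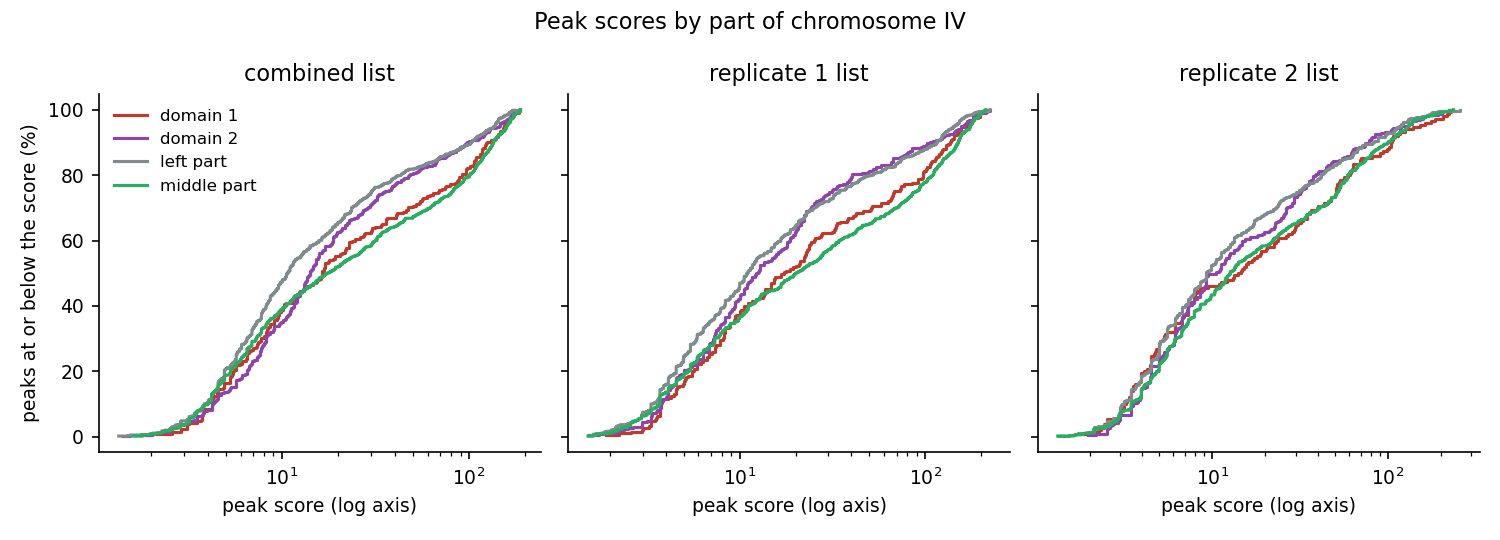
Cumulative share of peaks (vertical axis, %) at or below each score (horizontal log axis) in the piRNA domains and the left and middle parts of IV, with 1 panel per list. Above the median the curves pair up, with domain 1 beside the middle part (upper quartiles 68.8 and 81.3 in the combined list) and domain 2 beside the left part (35.0 and 30.1).

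The 3 highest-scoring peaks of each domain ranked 4 to 20 among the combined peaks of IV. The highest combined score in domain 1 was 187.18 at IV:5370766-5371418, the rank 4 peak of the chromosome, with scores of 196.58 in replicate 1 and 185.41 in replicate 2. The next in domain 1 were IV:6585176-6586075 (185.49 combined, 210.56 and 229.89 in the replicates) and IV:6756139-6757163 (176.4 combined, 192.34 and 163.28). In domain 2 the highest was 185.6 at IV:14767447-14768264, rank 9 on IV, with 223.08 in replicate 1 and 158.71 in replicate 2. It was followed by IV:17118259-17119674 (177.37 combined, 212.57 and 204.16) and IV:17086875-17088085 (173.72 combined, 213.49 and 151.87). The latter pair lay within the last 0.2 Mb of the domain. The top peak of the rest of IV, at IV:389760-391052, scored 188.52, followed by 188.21 at IV:11604616-11605488 and 187.21 at IV:11855772-11858026. All 9 were chosen among peaks found in both replicates, and the domain peaks ranked 46 to 142 among all peaks of the combined list.

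Peak width did not separate the domains from the rest in the combined list. Median widths were 401 bp in domain 1 (327 to 519), 368.5 bp in domain 2 (331 to 406) and 366.5 bp in the rest of IV (339 to 389). Peaks wider than the list's median of 387 bp made up 51.2% in domain 1, 46.6% in domain 2 and 47.7% in the rest, against 49.9% of all nuclear peaks. In replicate 1 the share in domain 2 was 41.6%, a difference from the rest of -6.44 points (-12.6 to -0.0775). In replicate 2 it was 50.8%, a difference of 0.729 points (-6.13 to 7.56). The left part held narrower peaks, with a median of 303.5 bp (284 to 322), and the middle part wider ones, 471.5 bp (407 to 538). The combined share of wider peaks exceeded that of the left part by 11.8 points (4.19 to 19.4) in domain 1 and 7.31 (0.785 to 13.8) in domain 2. Against the middle part the differences were -4.20 (-11.8 to 3.38) and -8.72 points (-15.2 to -2.15). For domain 2 the latter was -14.5 (-21.2 to -7.55) in replicate 1 and -4.38 (-11.8 to 3.03) in replicate 2. Broad peaks of at least 1.5 kb numbered 8 in domain 1 (3.72%) and 11 in domain 2 (3.35%), against 4.14% of peaks in the rest of IV and 4.05% of all nuclear peaks. The widest were 2915 bp in domain 1 at IV:4747670-4750584 (combined score 146.02, 2 peaks in each replicate), 3795 bp in domain 2 at IV:14476567-14480361 (43.07, 4 peaks in each replicate) and 4691 bp in the rest at IV:4467670-4472360 (89.28).

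Sharing between the replicates differed by a few percentage points between the domains and the rest. Combined peaks that overlapped a peak of both replicates by at least 1 bp made up 123 of 215 (57.2%, Wilson interval 50.5 to 63.6) in domain 1, 180 of 328 (54.9%, 49.5 to 60.2) in domain 2 and 52.0% (49.4 to 54.7) in the rest of IV, against 52.9% of all nuclear combined peaks. The differences from the rest were 5.18 points (-2.00 to 12.1) and 2.85 points (-3.17 to 8.77). For domain 1 the interval excluded 0 when the bounds were moved inward by 0.2 Mb (9.18 points, 1.43 to 16.5) and when peaks were matched by midpoints within 200 bp (8.34 points, 1.16 to 15.4). With only the top 50% by score, both intervals excluded 0 in the other direction. The differences were then -7.11 points (-14.6 to -1.77) in domain 1 and -4.96 points (-10.8 to -0.601) in domain 2. Over all combined peaks, the differences from the left part were 9.91 points (2.23 to 17.4) and 7.58 points (0.971 to 14.1). Those from the middle part were 0.688 points (-6.93 to 8.12) and -1.64 points (-8.17 to 4.83). Peaks found in neither replicate made up 11.2% of domain 1 and 9.45% of domain 2, against 13.9% of the rest and 12.8% of all nuclear peaks. The difference of domain 2 from the rest was -4.41 points (-7.74 to -0.371). Sharing followed the score in each part: all 77 peaks of domain 1 and all 88 of domain 2 that scored above 32.27 were in both replicates. Of those scoring up to 7.76, 5 of 65 and 2 of 89 were. The rest of IV was alike, with 432 of 434 in the upper and 20 of 483 in the lower of these score ranges. How the combined list was made is not stated, so its scores may not be independent of the replicate lists.

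The replicate 2 list divided the domains. Of its peaks, 136 of 150 in domain 1 (90.7%, 84.9 to 94.4) overlapped a replicate 1 peak, against 202 of 256 in domain 2 (78.9%, 73.5 to 83.5), 83.5% in the rest of IV and 83.3% of all nuclear peaks. Domain 2 was 11.8 points below domain 1 (difference -11.8, -18.3 to -4.45). From the rest of IV, domain 1 differed by 7.14 points (1.01 to 11.6) and domain 2 by -4.62 (-10.5 to 0.563). From the middle part, domain 1 differed by 5.68 points (-0.687 to 10.6) and domain 2 by -6.08 (-12.2 to -0.473). Which domain had the interval that excluded 0 thus depended on the reference. Runs of at least 5 consecutive unshared peaks within 2 kb of each other occurred at 3 places on IV. Outside the domains, replicate 2 had 12 such peaks at IV:8572681-8581647 in the middle part and replicate 1 had 5 at IV:968098-971760 in the left part. The run of domain 2, at IV:15076628-15082256, had 8 replicate 2 peaks with scores of 5.88 to 31.54, of which 5 were in the combined list. Without the run of domain 2, the share there was 81.5% and the difference from domain 1 was -9.22 points (-15.7 to -2.03). In the other direction no such difference was seen. Of replicate 1 peaks, 65.8% in domain 1 and 65.9% in domain 2 overlapped replicate 2, against 62.8% in the rest and 63.8% of all nuclear peaks. The combined list contained 98.7% of replicate 2 peaks in domain 1 and 91.4% in domain 2, against 94.7% in the rest of IV. Replicate 2 peaks that were in neither other list numbered 2 of 150 in domain 1, 22 of 256 in domain 2 and 51 of 965 in the rest. On the whole of IV they numbered 75 of 1371.

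Scores of one-to-one peak pairs ranked alike in the replicates. Spearman's rho was 0.90 over 114 pairs in domain 1, 0.70 over 168 pairs in domain 2 and 0.84 over 652 pairs in the rest of IV, and Pearson's r was 0.86, 0.87 and 0.87. These are descriptions across peaks of the same 2 libraries. Paired midpoints lay a median of 45 bp apart in domain 1 and 33.5 bp apart in domain 2. Replicate 1 gave the wider peak of the pair in 81.6% of domain 1 pairs, 72.6% of domain 2 pairs and 82.4% of pairs in the rest.

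The left bound of domain 2 fell within a peak, and the other bounds fell between peaks. The last combined peak before domain 1, at IV:4474103-4474308, scored 4.38 and the first inside it, at IV:4509621-4509875, scored 11.53. At its right bound the last inside was IV:6977135-6977442 (41.02) and the first outside IV:7011646-7013277 (129.54). At the left bound of domain 2 the peaks were closer, with IV:13486994-13487884 (44.86) outside and IV:13499832-13500532 (89.96), which spans the bound, inside. At its right bound they were IV:17155697-17155895 (7.92) inside and IV:17214401-17214547 (7.3) outside.

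Chromosomes differ in how peaks are spread from end to end, so the same relative positions were measured on the other 5 nuclear chromosomes. At the relative position of domain 1, chromosome IV had the lowest ratio of position to rest in each of the 3 lists. In the combined list it was 0.705, followed by 0.847 (0.744 to 0.961) on I and 0.996 (0.820 to 1.20) on X, with 1.01 on V, 1.10 on II and 1.11 on III. In replicate 1 the value nearest to that of IV was 0.831 on I, and in replicate 2 it was 0.916 on X. At the relative position of domain 2, chromosome V had a lower ratio than IV in each list, with 0.689 (0.599 to 0.791) for the combined peaks, 0.619 for replicate 1 and 0.730 for replicate 2. Chromosome I had 0.825 (0.739 to 0.919), while X, II and III had 1.16, 1.26 and 1.45. A lower density at the position of domain 2 was thus also present on chromosomes V and I, which hold 202 and 98 of the piRNA genes. With 6 chromosomes and 1 of them holding the clusters, no test of the difference was possible, and the part of piRNA genes in it was not tested.

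**Figure D5:**
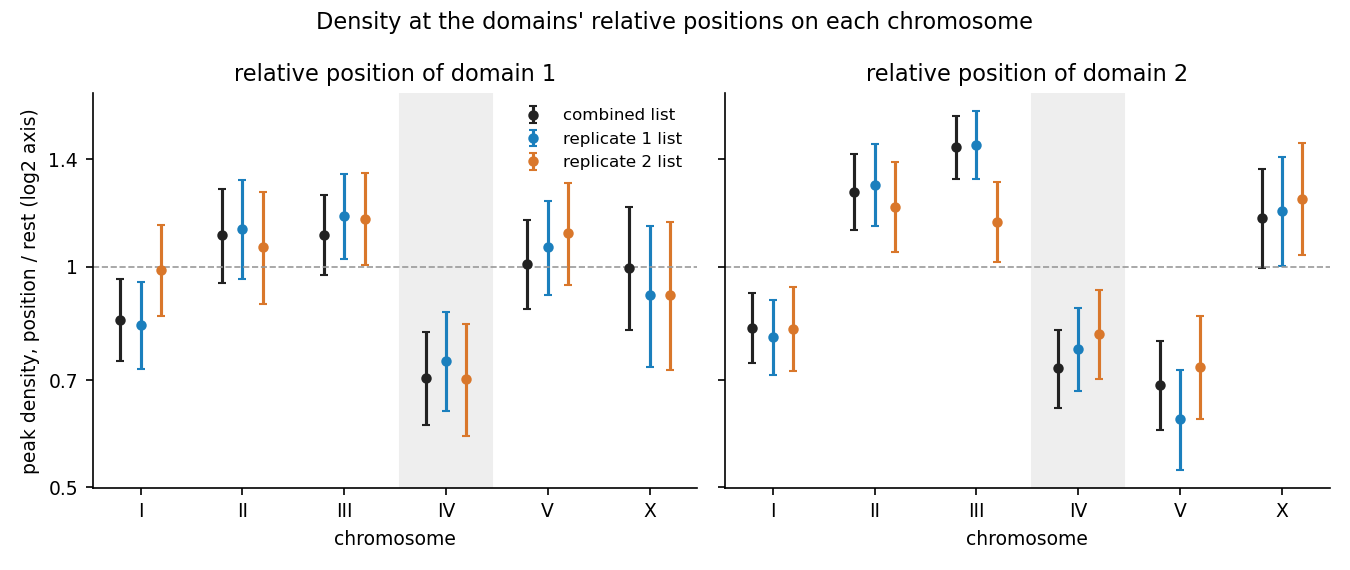
Ratio of peak density at the relative position of each piRNA domain to that in the rest of the same chromosome (vertical log2 axis), for 6 chromosomes and 3 lists, with exact 95% intervals; grey marks IV and the dashed line equal density. At the domain 1 position IV is lowest (0.705 in the combined list), and at the domain 2 position V is lowest (0.689) with IV next.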

How the data were processed

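NURF-1 ChIP-seq peaks of wild-type L3 larvae were analysed from 3 lists. Peaks were called with MACS on WormBase WS220, per the file headers, and reads were aligned with BWA to ce10, per the submitters' processing notes. Versions, filters, any use of input and the way the lists were combined were not given in the sources used here. The deposited score per peak has no stated scale, and the authors' peak bounds were used as deposited. Depth is unknown.

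Chromosome length was set to the last peak end over the 3 lists (17493793 bp for IV). Peaks overlapped when they shared at least 1 bp. Stretches were cut at zone bounds. Densities carry exact Poisson, density ratios exact conditional, shares Wilson, and differences of shares Newcombe intervals, at 95%. No p-values were computed, since there is 1 group of 2 ChIP libraries. Named were the 3 highest-scoring shared peaks, the widest peak and the 3 longest peak-free stretches of each zone, its densest and sparsest 0.5 Mb bins, runs, and the peaks at the bounds; the largest joined sites were added later. Functions were tested on simulated data. The peaks, bounds and measures were chosen with earlier results of these data known. Tools were matplotlib 3.10.9, scipy 1.17.1, pandas 2.3.3, numpy 2.4.6 and Python 3.11.15. No genome sequence or annotation of WS220 was used here.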

Additional observations from a re-analysis of the deposited data

How the results depend on the processing

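Over 11 results and 78 alternative values, 53 stayed within the interval or replicate spread of the value reported and 25 moved beyond it. The cause was not tested. For peak-free stretches in domain 1 this band was narrow, 14.49 to 14.95 points. It excluded the values of both replicate lists (13.0 and 12.7), so the split into stayed and moved depends on how the band was set. The lower density of both domains and their larger share of long peak-free stretches kept their direction under each of these alternatives. The right tip alone was not used as a reference. It was sparser than either domain in each list. Its share of bases in stretches of at least 20 kb, 72.9% in the combined list, was above that of either domain. Score ranges set against a single part of IV were also not among the alternatives, and some of those ratios exceeded 1. They were 1.04 for domain 2 (lower range, middle part, replicate 1), and 1.06 and 1.08 for domain 1 (top 10%, left part, replicates 1 and 2). The log2 density ratio to the rest of IV ranged from -0.78 to -0.30 in domain 1 and from -1.01 to -0.26 in domain 2. It was -0.78 and -0.74 for domains 1 and 2 against the left part, -0.26 for domain 2 against the middle part, -1.01 for domain 2 with the top 10% by score, and -0.65 for domain 2 with peaks within 2 kb joined, an alternative chosen after seeing the data. The excess of bases in stretches of at least 20 kb, 14.7 points in domain 1 and 20.05 in domain 2, was 8.46 and 12.96 with peaks in both replicates and 18.8 and 24.2 against the left part. In domain 1 it was 12.9 against the middle part and 11.8 with bounds moved inward by 0.2 Mb. With stretches of at least 50 kb it was 7.12 and 29.6, and with each replicate list alone 12.7 to 13.0 and 13.7 to 18.3. Differences in score, width and sharing changed sign. With peaks in both replicates the score differences were -5.89 and -5.23 points, and 8.42 for domain 2 against the left part. The width differences were -4.20 and -8.72 points against the middle part and 11.8 and 7.31 against the left part. With the top 50% by score the sharing differences were -7.11 and -4.96 points. No paired analysis was possible because input libraries 1 and 2, whose numbers match those of the ChIP replicates, have no values here. Without reads, a missing peak cannot be told from one below the threshold, nor can sequence to which reads could not be mapped be told from unbound sequence.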
